A study of Mus musculus with 72 samples.

Results

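The genes described here encode G protein α subunits, the nucleotide-binding subunits of heterotrimeric G proteins. They were chosen by name as 10 genes, Gnai1, Gnai2, Gnai3, Gnao1, Gnaz, Gnas, Gnal, Gnaq, Gna11 and Gna12, and were read from the 10 matching Ensembl gene IDs among 53715 in the count tables. RNA-seq was done on 72 libraries from 18 male mice aged 18 weeks, 6 of each Gnb5 genotype. Gnb5 encodes the Gβ5 subunit, and the mutant allele, made on a C57BL/6J background, lacks exon 3 in every cell of the animal. Wild-type (Gnb5+/+) and knockout (Gnb5-/-) mice each gave 5 tissues, namely right and left atria pooled, ventricles, cerebellum, hippocampus and cortex. Heterozygous (Gnb5+/-) mice gave atria and ventricles only, which makes 12 groups of 6 libraries. No group received an agent, and every tissue was taken whole, so that each library mixes all cell types of the organ, with the nodal cells among those of the atria.

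A G protein α subunit binds GDP at rest in a complex with a βγ dimer, and it exchanges GDP for GTP when a ligand-bound receptor acts on the complex. Subunits are grouped by what they act on: the Gi, Go and Gz class lowers cyclic AMP and releases βγ dimers that open GIRK potassium channels, the Gs class activates adenylyl cyclase, the Gq class activates phospholipase Cβ, and the G12 class activates RhoGEF proteins. Gβ5 is the unusual β subunit that pairs with RGS proteins of the R7 family, which speed GTP hydrolysis by Gi and Go subunits, and in the atria this pathway sets how fast the response to vagal acetylcholine ends.

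The members lie on 8 chromosomes of the GRCm38 mouse genome. Gnai2 (9, minus strand) is the member on the chromosome of Gnb5, 32.268 Mb away, and all other members are on other chromosomes. The 250 bases upstream of annotated transcript starts were looked up in RefSeq sequence of GRCm38.p6, where 7 of the 10 members had an entry. They are shown for 3 members whose levels followed different tissue patterns below, Gnai1 and Gnaq (higher in brain) and Gna12 (higher in heart), and whose windows overlapped no annotated exon. Capitals mark GC boxes, searched as GGGCGG and its complement CCGCCC, and each line reads 5′ to 3′ on the strand of the gene. The windows are chr5:18360414-18360663 (minus) for Gnai1, chr19:16132434-16132683 (plus) for Gnaq and chr5:140830432-140830681 (minus) for Gna12.
Gnai1: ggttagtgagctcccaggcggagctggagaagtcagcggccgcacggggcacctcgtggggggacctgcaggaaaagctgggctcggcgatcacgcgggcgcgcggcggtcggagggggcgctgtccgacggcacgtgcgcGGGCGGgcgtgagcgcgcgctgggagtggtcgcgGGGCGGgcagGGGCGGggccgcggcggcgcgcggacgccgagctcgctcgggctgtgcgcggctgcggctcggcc
Gnaq: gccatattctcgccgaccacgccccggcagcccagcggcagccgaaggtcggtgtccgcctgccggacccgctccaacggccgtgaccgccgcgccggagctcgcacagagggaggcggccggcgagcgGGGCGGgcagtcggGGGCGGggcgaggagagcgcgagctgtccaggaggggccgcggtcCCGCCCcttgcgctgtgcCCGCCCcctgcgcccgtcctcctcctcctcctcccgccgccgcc
Gna12: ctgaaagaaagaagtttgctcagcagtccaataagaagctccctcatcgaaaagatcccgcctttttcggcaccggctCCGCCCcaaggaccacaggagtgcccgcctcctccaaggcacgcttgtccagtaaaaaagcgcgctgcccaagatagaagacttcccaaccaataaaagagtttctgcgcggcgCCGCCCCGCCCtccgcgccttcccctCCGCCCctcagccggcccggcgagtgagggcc
The Gnai1 window held 3 GC boxes, the Gnaq window 4 and the Gna12 window 4, with 2 of those in Gna12 sharing a base. At least 1 GC box was found in 32.7% of 32851 such mouse windows. GC content was 79.2% for Gnai1 and for Gnaq and 61.2% for Gna12, against a median of 52.4% over all windows. The Gna12 window also held 2 CCAAT motifs, which occurred at least once in 33.8% of windows, and none was found in the other 2. No GC box was found in the window of Gnai3, which also overlapped no annotated exon, or in that of Gnao1, which did overlap one, so the 3 shown are not typical of all members. No use of these letters was measured.

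Between 29204390 and 48807435 reads per library were counted on genes (median 38864900), and the 10 members took 0.0827% to 0.311% of them. Levels are CPM, counts scaled to library size, after TMM scaling over all libraries, and RPKM is the same value per kilobase of the union of annotated exons, which is the scale used wherever genes are set against each other. Gnb5 fell in every knockout tissue, with log2 fold changes from -4.26 in ventricles to -2.84 in cerebellum, and in heterozygous atria (-0.93) and ventricles (-0.95), as the labels require. Summed markers of atrial muscle were 25030 to 43620 CPM in atrial libraries and 128 to 478 in ventricular ones, so tissue labels held, although ventricular markers (13790 to 14470 CPM in wild-type ventricles) reached 75.8 to 1326 CPM in wild-type atria. A knockout cerebellum library (replicate 2) and 2 knockout cortex libraries (replicates 3 and 5) stood apart from the rest of their groups, and results that rest on them are also given without them. Replicate 4 of the heterozygous ventricles also stood apart, and 0 members were called there by edgeR with or without it.

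The first question was how the α subunits are distributed over the 5 wild-type tissues. The brain and the heart had different repertoires. On the RPKM scale the Gi, Go and Gz class made up 53.9% of the summed level of the 10 members in cerebellum, 48.5% in hippocampus, 49.2% in cortex, 42.0% in atria and 31.1% in ventricles. Gna12, the only G12 class member in the list, made up 26.9% in ventricles and 15.1% in atria but 6.36% to 6.76% in the brain regions. The Gs class (Gnas and Gnal) ranged from 21.8% in cerebellum to 31.7% in atria, and the Gq class (Gnaq and Gna11) from 11.02% in ventricles to 20.5% in hippocampus. With the longest transcript in place of the exon union every one of these shares moved by more than its SD, to 48.3% for the Gi, Go and Gz class in cerebellum and to 15.1% for Gna12 in ventricles, while the Gs class became the largest class in atria (47.8%) and ventricles (49.4%). The Gnas locus has 24 annotated transcripts from several promoters, so its exon union of 11186 bases is far longer than its longest transcript (3947 bases). In percentage points its share moved most with that choice. Gna12 in atria also moved, from 15.1% to 8.04%.

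**Figure D1:**
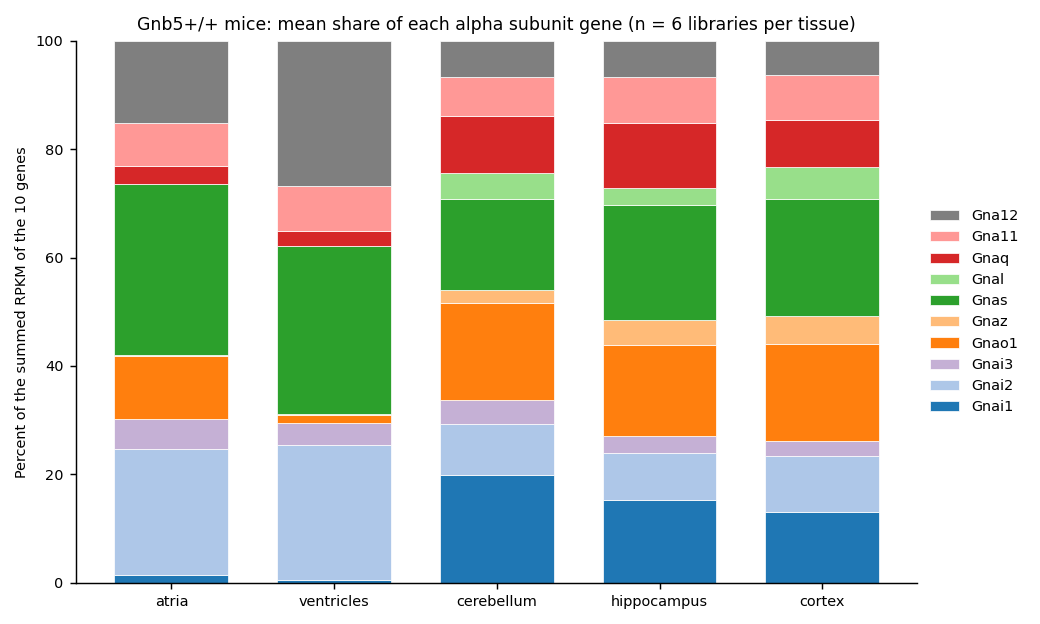
Share of the summed RPKM of the 10 α subunit genes taken by each gene in the 5 wild-type tissues, in percent, as stacked bars of means over 6 libraries. Gna12 takes 26.9% of the ventricular bar against 6.36% of the cortical one.

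Gnas, which encodes the stimulatory subunit coupled to β-adrenergic receptors, led the list per length in atria (31.7% of the summed RPKM), ventricles (31.0%), hippocampus (21.2%) and cortex (21.6%). In atria it was followed by Gnai2 (23.2%), Gna12 (15.1%) and Gnao1 (11.6%). In ventricles the order was Gnas, Gna12 (26.9%), Gnai2 (24.9%) and Gna11 (8.31%), and Gnao1 took 1.49%. In cerebellum Gnai1 (19.9%), Gnao1 (18.0%) and Gnas (16.9%) were close together, and their order turned with the longest transcript, which put Gnas first at 29.4%.

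In the heart, 7 of the 10 members differed between wild-type ventricles and atria by edgeR's quasi-likelihood test with the mouse as a block, 3 of them higher in ventricles and 4 lower, where 22.7% of all 19477 genes tested were higher and 31.0% lower. Gnao1, the Go subunit abundant in neurons, differed most. Its level was 267 to 310 CPM in wild-type atria (median 296) and 32.1 to 54.7 CPM in wild-type ventricles (median 42.4). No ventricular library came near an atrial one. The level in atria was 7.08-fold that in ventricles (log2 difference, ventricles minus atria, -2.82, SE 0.08, adjusted p = 3.7e-21, edgeR). Fewer cells of a type and less RNA per cell cannot be told apart in such whole-tissue libraries. The 5 general neuronal markers summed to 4.11 to 12.7 CPM in wild-type atria and 2.70 to 4.36 CPM in wild-type ventricles, ranges that overlapped, with Rbfox3, Syt1 and Snap25 below 0.1 CPM on average in ventricles. Markers of autonomic neurons (Chat, Slc18a3, Th, Dbh and Prph) summed to 14.4 to 27.2 CPM in wild-type atria and 2.801 to 8.05 CPM in wild-type ventricles, without overlap and in the direction of Gnao1, and Chat, Slc18a3 and Th were at 0 in all 6 ventricular libraries. The part of either marker sum in the Gnao1 difference was not tested.

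Of the inhibitory subunits, Gnai1 showed the same direction at a lower level. It was at 8.58 to 12.7 CPM in wild-type atria (median 10.8) and 2.73 to 6.11 CPM in wild-type ventricles (median 4.53), with no overlap, and the atrial level was 2.42-fold the ventricular one (-1.27, SE 0.12, adjusted p = 3.13e-10, edgeR). Gnaz, a Gi-like subunit that is insensitive to pertussis toxin, was near the limit of what the depth resolves in heart, with 13 to 60 reads in each wild-type library, and was 1.28 ± 0.475 CPM in atria and 0.763 ± 0.0972 CPM in ventricles (SD, n = 6). It was lower in ventricles (-0.80, SE 0.19, adjusted p = 0.000817, edgeR) although the ranges overlapped, and the call was lost when only these 2 tissues were fitted (adjusted p = 0.0548). Gnai3, a broadly expressed inhibitory subunit, was also lower in ventricles by a small margin (-0.30, SE 0.08, adjusted p = 0.00279, edgeR), at 41.5 ± 6.65 CPM in atria and 34.5 ± 4.69 CPM in ventricles with overlapping ranges, a call lost in the same fit (adjusted p = 0.0844).

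The most abundant inhibitory subunit of the heart, Gnai2, went the other way. Wild-type ventricles held 224 to 282 CPM (median 252) and wild-type atria 177 to 217 CPM (median 207), so the ranges did not meet. The difference was 1.19-fold (0.25, SE 0.06, adjusted p = 0.000884, edgeR). Gna12, which couples receptors to RhoGEF proteins, was 185 to 283 CPM in ventricles (median 252) and 96.3 to 156 CPM in atria (median 111). Every ventricular library lay above every atrial one, and the difference was 1.98-fold (0.99, SE 0.10, adjusted p = 4.78e-09, edgeR).

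The Gq class subunits differed little between the chambers. Gna11 was 90.1 ± 9.42 CPM in ventricles and 76.6 ± 7.87 CPM in atria (0.19, SE 0.07, adjusted p = 0.0167, edgeR), a call that was lost without replicate 2, 5 or 6, or without the filter on low counts (0.11 and adjusted p = 0.155 without replicate 2). Gnaq was 43.9 ± 4.15 CPM in ventricles and 45.3 ± 5.35 CPM in atria (-0.08, adjusted p = 0.355). Gnas was 771 to 1063 CPM in ventricles and 749 to 873 CPM in atria (0.13, SE 0.07, adjusted p = 0.109), which DESeq2 called (adjusted p = 0.00418). Gnal, the Gs class subunit of olfactory and striatal neurons, was barely detected in heart, at 0.635 ± 0.134 CPM in atria and 0.594 ± 0.275 CPM in ventricles, from 4 to 53 reads in each heart library.

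**Figure D2:**
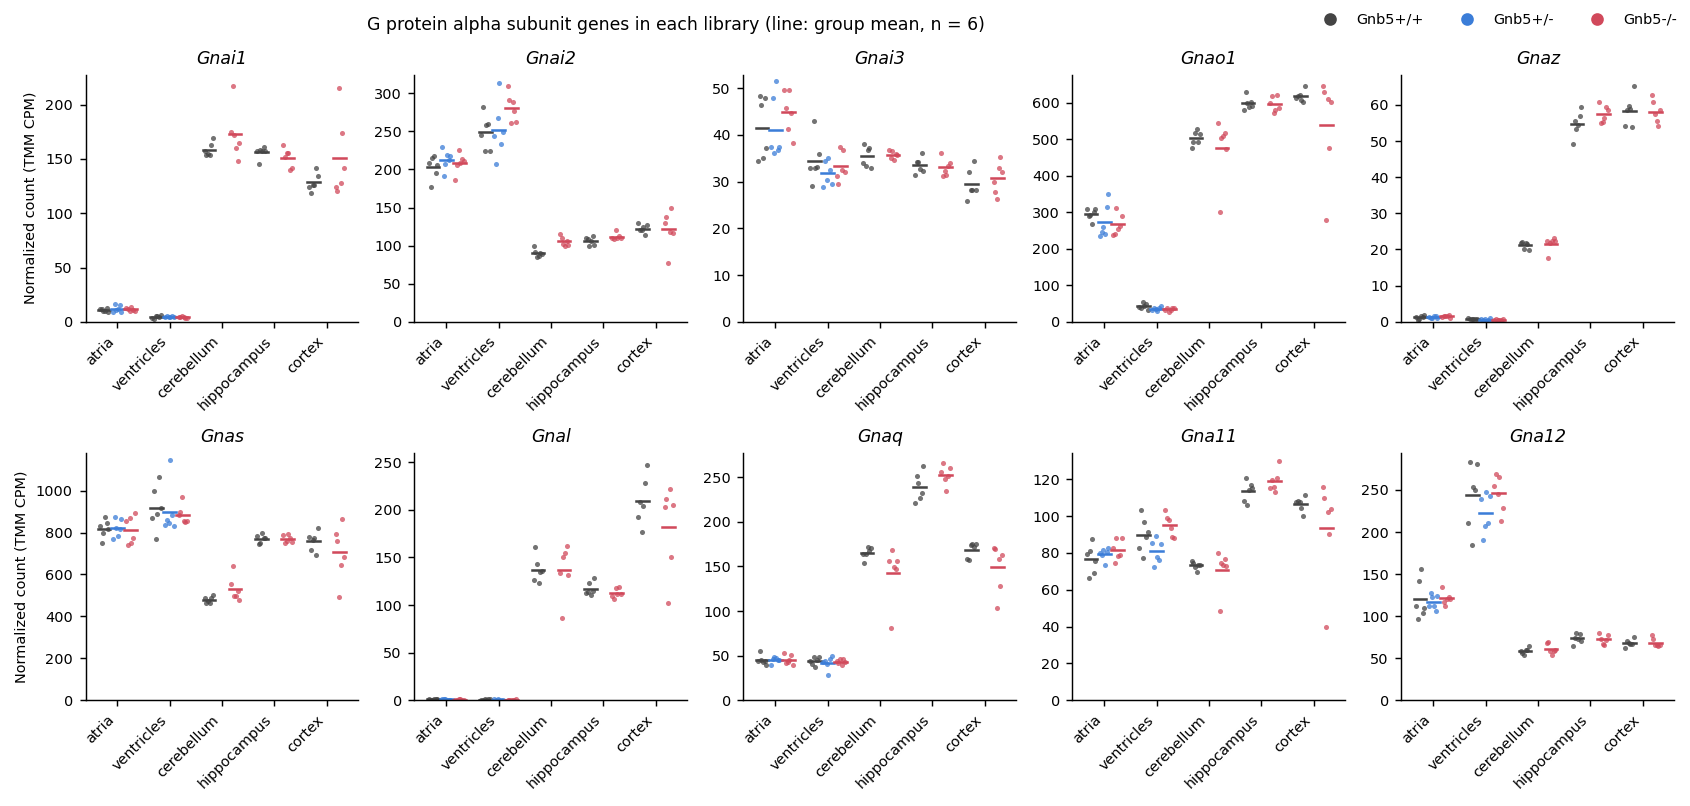
CPM (linear axis from 0) of each α subunit gene in every library of the 12 groups, 1 point per library, with a line at the group mean and 1 panel per gene. Gnao1 stands at 267 to 310 CPM in wild-type atria and 32.1 to 54.7 CPM in wild-type ventricles, and the genotypes of a tissue overlap for every gene except Gnai2 in cerebellum.

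Against the mean of both heart chambers, the mean of the 3 brain regions differed for all 10 members by edgeR (largest adjusted p = 0.000843, for Gnai3), 6 higher and 4 lower, where 50.6% of all genes tested were higher and 41.0% lower. With over 90% of genes past the threshold the size of a difference says more than the call, and the median of all genes was 0.23 on the log2 scale. Gnal was 244-fold higher in brain (7.93, SE 0.10), Gnaz 41.6-fold (5.38, SE 0.09), Gnai1 21.3-fold (4.41, SE 0.08), Gnao1 5.14-fold (2.36, SE 0.05) and Gnaq 4.26-fold (2.09, SE 0.05). Gna11 was 1.17-fold higher, which is at the median of all genes. Gna12 was 2.55-fold lower in brain (-1.35, SE 0.07) and Gnai2 2.11-fold lower (-1.08, SE 0.04), while Gnas (-0.39, SE 0.04) and Gnai3 (-0.20, SE 0.05) were lower by less. The closely related inhibitory subunits Gnai1 and Gnai2 took opposite places: Gnai1 was at 4.51 to 10.7 CPM in heart and 129 to 159 CPM in brain as group means, and Gnai2 at 203 to 249 CPM in heart and 90.5 to 122 CPM in brain.

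**Figure D3:**
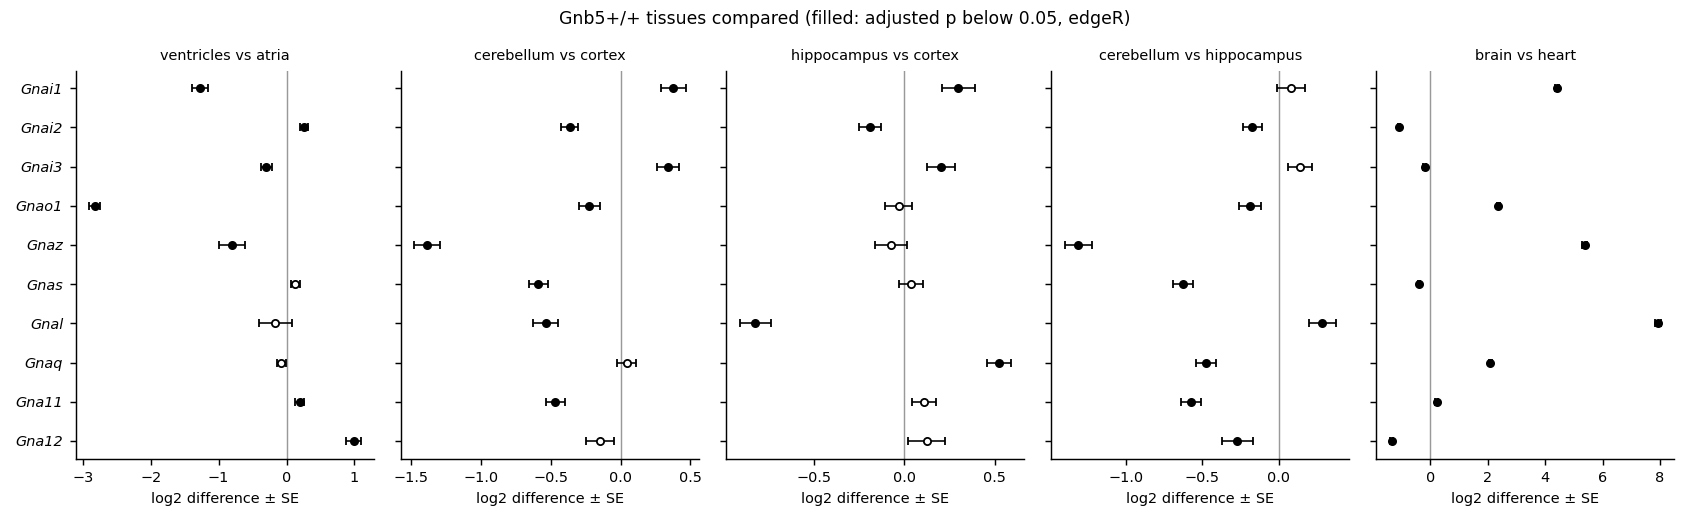
Log2 difference of each α subunit gene in 5 contrasts between wild-type tissues, with bars of 1 SE from an edgeR fit of 30 libraries, filled where the adjusted p was under 0.05. The brain minus heart values run from -1.35 for Gna12 to 7.93 for Gnal, and the ventricles minus atria values from -2.82 for Gnao1 to 0.99 for Gna12.

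Within the brain, the cerebellum differed most from the other regions, among the members as over all genes. Against cortex, 8 of 10 members were called, 2 higher and 6 lower (all genes tested, 35.1% higher and 36.7% lower), and against hippocampus 8 of 10, 1 higher and 7 lower (all genes, 35.0% higher and 35.9% lower). Gnaz was the lowest of them in cerebellum, at 21.2 ± 0.943 CPM against 54.8 ± 3.48 in hippocampus and 58.4 ± 4.15 in cortex, which was 2.61-fold lower than cortex (-1.39, SE 0.09, adjusted p = 9.97e-14, edgeR) and 2.48-fold lower than hippocampus (-1.31, SE 0.09). Gnas was 462 to 503 CPM in cerebellum (median 481), below every library of hippocampus (770 ± 18.9 CPM) and cortex (758 ± 45.8 CPM). It was 1.504-fold lower than cortex (-0.59, SE 0.07, adjusted p = 8.95e-09, edgeR) and 1.54-fold lower than hippocampus. Gna11 was lower than cortex (-0.47, SE 0.07, adjusted p = 4.89e-07) and than hippocampus (-0.58, SE 0.07, adjusted p = 1.38e-08) in the same edgeR fit. Against hippocampus Gnao1 was also lower (-0.19, SE 0.07, adjusted p = 0.0205, edgeR), a call lost without replicate 1, 2 or 5. Gnao1 (-0.22 against cortex, SE 0.07) and Gnai2 (-0.36, SE 0.06) were lower by less, and Gnai1 (0.38, SE 0.09) and Gnai3 (0.34, SE 0.08) were higher than in cortex but were not called against hippocampus (0.08 and 0.14).

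Hippocampus and cortex were more alike, with 5 of 10 members called, 3 higher in hippocampus and 2 lower (all genes tested, 18.7% higher and 19.0% lower). Gnaq, whose product activates phospholipase Cβ below muscarinic and metabotropic glutamate receptors, was 221 to 263 CPM in hippocampus (median 238) and 157 to 176 CPM in cortex (median 173). Every hippocampal library was above every cortical one, and the difference was 1.43-fold (0.52, SE 0.07, adjusted p = 3.14e-07, edgeR). Gnaq in cerebellum (154 to 172 CPM) did not differ from cortex beyond its spread (0.04, adjusted p = 0.573, edgeR). The smaller differences were Gnai1 (0.30, SE 0.09), Gnai3 (0.20, SE 0.08) and Gnai2 (-0.19, SE 0.06), and Gnai3 was the nearest to the threshold (adjusted p = 0.0425, edgeR). The Gnai3 call was lost without replicate 1, 3, 4 or 6 (adjusted p up to 0.126), with RLE scaling and without the mouse block, and the Gnai2 call without replicate 4 or 6 and without the filter (adjusted p up to 0.0767). Gna12 was at 58.6 ± 3.68 CPM in cerebellum, 73.5 ± 5.76 in hippocampus and 68.2 ± 4.26 in cortex and, within the brain, was called only for cerebellum against hippocampus (-0.27, SE 0.10, adjusted p = 0.0209, edgeR). That call was lost without replicate 5 (adjusted p = 0.0552), and fits of only the 2 tissues compared also called Gna12 for cerebellum against cortex (adjusted p = 0.000949) and hippocampus against cortex (adjusted p = 0.0266).

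Gnal was higher in cortex than in the other regions. Wild-type cortex held 177 to 248 CPM (median 206), cerebellum 123 to 161 CPM (median 135) and hippocampus 110 to 128 CPM (median 114). Cortex lay above both without overlap, by 1.77-fold against hippocampus (0.82 below cortex on the log2 scale, SE 0.09, adjusted p = 1.45e-08, edgeR). Cerebellum and hippocampus overlapped, and Gnal was called higher in cerebellum (0.29, SE 0.09, adjusted p = 0.0048, edgeR). That call was lost with DESeq2 (adjusted p = 0.0949). A list of 7 striatal neuron markers summed to 327 to 734 CPM in wild-type cortex, 168 to 254 CPM in cerebellum and 123 to 139 CPM in hippocampus. The cortical library with the lowest Gnal (177 CPM) also had the lowest striatal sum (327 CPM), and the library with the highest Gnal (248 CPM) had the highest (734 CPM). Cerebellum differed, as its wild-type library with the highest Gnal (161 CPM) had the lowest striatal sum (168 CPM). The part of striatal tissue in the cortical Gnal level was not tested.

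In the order of wild-type means, neighbouring tissues overlapped in some members and not in others. Gnai2 was ordered ventricles, atria, cortex, hippocampus and cerebellum, and no neighbours in that order overlapped. Gna12 had the same first places, ventricles above atria above the brain regions, among which hippocampus overlapped cortex and cortex overlapped cerebellum but cerebellum lay below hippocampus. Gnao1 and Gnaz were highest in cortex and hippocampus, which overlapped, then cerebellum. Gnai3 and Gna11 had overlapping neighbours throughout, and Gnai3 stayed between 29.4 and 41.5 CPM in all 5 tissues. Gnas had overlapping neighbours in ventricles, atria, hippocampus and cortex, with cerebellum below them.

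The genes whose levels followed each member most closely over the 72 libraries, by Pearson correlation of log2 CPM among 20467 genes, were taken as a description, since all points share the 5 tissues. They were Fndc4 for Gnai1 (r = 0.992), Pxmp4 for Gnai2 (0.974), Fkbp14 for Gnai3 (0.814), Cacna2d3 for Gnao1 (0.987), Dlg3 for Gnaz (0.993), Kcnn1 for Gnas (0.929), Diras1 for Gnal (0.994), Synj1 for Gnaq (0.989), Dph1 for Gna11 (0.927) and Oxct1 for Gna12 (0.978). Next in rank came Magee1 and Mbp for Gnai1, Rai2 and Fmnl3 for Gnai2, Uso1 and Copb1 for Gnai3, Cacna1d and Usp29 for Gnao1, Baiap2 and Ahi1 for Gnaz, Smoc2 and Ogg1 for Gnas, Nyap2 and Mir9-3hg for Gnal, Trpc5 and Kcnj6 for Gnaq, Pacs1 and Ntng2 for Gna11, and Prpf19 and Samm50 for Gna12. Gnai3 had the weakest best match. Among the members themselves, Gnaz and Gnal rose and fell together (r = 0.971), and Gnai1 with Gnai2 (r = -0.968) and Gnao1 with Gna12 (r = -0.943) ran opposite to each other.

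The second question was whether loss of Gnb5 changed the RNA level of the α subunits. By edgeR's quasi-likelihood test, 0 of 10 members passed an adjusted p of 0.05 in any of the 7 genotype comparisons. The share of all genes called was 0.253% in knockout atria, 0.188% in knockout ventricles, 0.0817% in knockout cerebellum, 0.165% in knockout hippocampus, 0.0557% in knockout cortex, 0.0124% in heterozygous atria and 0.0202% in heterozygous ventricles. A count of 0 in 10 is near that background. At an unadjusted p under 0.05 there was 1 member in knockout ventricles (Gnao1), 1 in knockout cerebellum (Gnai2) and 0 elsewhere. Over all genes that share was 8.15% in knockout atria, 4.78% in ventricles, 5.85% in cerebellum, 7.70% in hippocampus and 7.39% in cortex, and 7.22% and 4.84% in heterozygous atria and ventricles, so 1 of 10 is close to it. DESeq2 called 1 member in the 7 comparisons, Gnai2 in knockout cerebellum, where it called 0.286% of genes.

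The precision of these values differed by tissue. In hippocampus the 10 members lay between -0.07 and 0.07 on the log2 scale, with SEs of 0.03 to 0.06. In atria they lay between -0.15 and 0.22, in ventricles between -0.43 and 0.17, in cerebellum between -0.21 and 0.23 and in cortex between -0.19 and 0.27. Heterozygous atria gave -0.10 to 0.19 and heterozygous ventricles -0.30 to 0.04. The SEs of Gnaz and Gnal, which had the fewest reads in heart, reached 0.37 in atria. Medians over the members ran from -0.12 in heterozygous ventricles to 0.02 in knockout atria and cerebellum, beside medians near 0 over all genes.

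**Figure D4:**
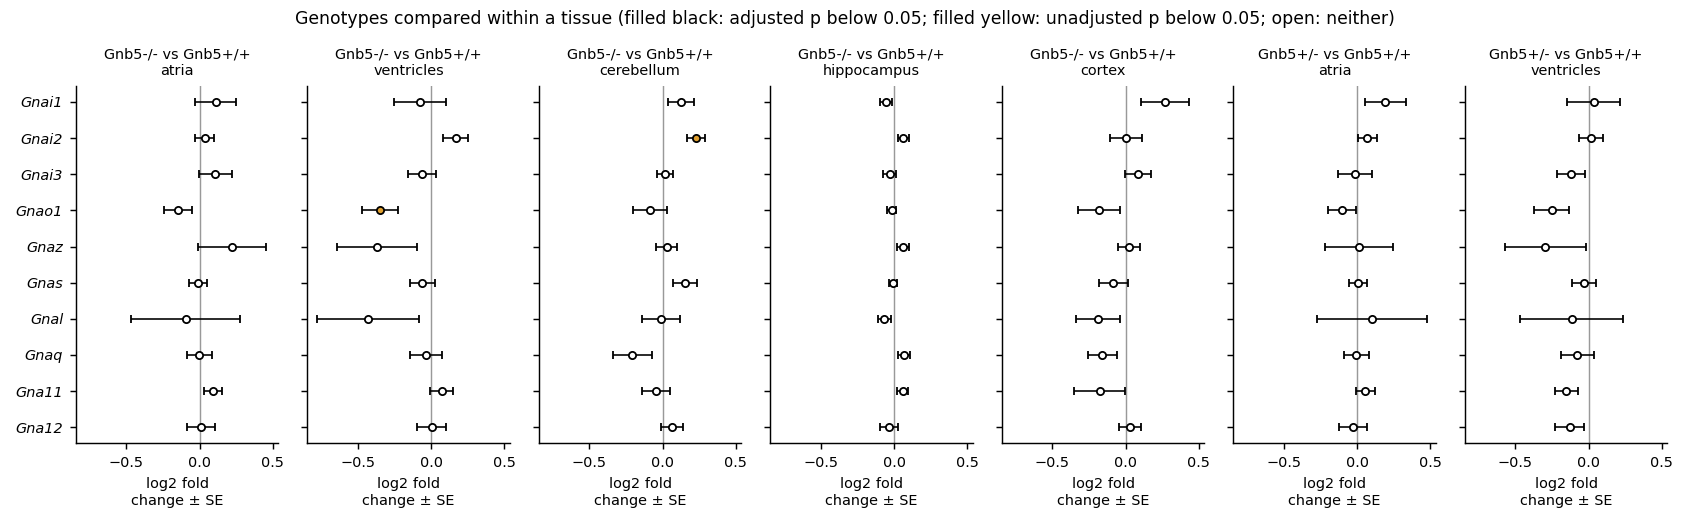
Log2 fold change of each α subunit gene against wild type in the 7 genotype comparisons, with bars of 1 SE from edgeR, open where the unadjusted p was not under 0.05. Hippocampal values lie within -0.07 to 0.07, and Gnai2 in knockout cerebellum (0.23) and Gnao1 in knockout ventricles (-0.35) are those with an unadjusted p under 0.05.

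Gnai2 in cerebellum was the member with groups that did not overlap, 1 of 70 member and comparison pairs. Over all genes tested, groups did not overlap in 0.566% of pairs in the 7 comparisons and in 1.14% in cerebellum. Wild-type cerebellum held 85.5 to 99.6 CPM (median 89.6) and knockout cerebellum 99.9 to 115 CPM (median 104). The lowest knockout library stood just above the highest wild-type one, and 6 of 6 knockout libraries were above the wild-type mean. The log2 fold change was 0.23 (SE 0.06), with an unadjusted p of 0.0027 and an adjusted p of 0.583 by edgeR's quasi-likelihood test, and an adjusted p of 0.0213 by DESeq2. A two-sided exact permutation test over all divisions of the 12 mice into 6 and 6 gave p = 0.00216, the smallest that this design can give, among 70 such tests. Over all alternatives the change stayed between 0.20 and 0.25.

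Gnai2 in the other knockout tissues gave 0.03 in atria, 0.17 in ventricles (SE 0.09, exact permutation p = 0.0238), 0.06 in hippocampus and 0.00 in cortex (0.03 without the cortex libraries that stood apart, replicates 3 and 5). In ventricles it was 261 to 309 CPM in knockouts and 224 to 282 CPM in wild types, which overlapped. Gnai2 lies at chr9:107614125-107635367, on the chromosome of the deleted Gnb5 exon. Genes of that chromosome, Gnb5 among them, made up 13 of the 14 genes called in knockout cerebellum by edgeR and 37 of the 49 called by DESeq2. For scale, 842 of the 14866 genes tested in ventricles lie on it. Whether chromosome 9 sequence that travels with the mutant allele has a part in the Gnai2 value was not tested. Marker sums in cerebellum overlapped between wild types and knockouts for microglia (56.8 to 63.2 and 51.6 to 75.8 CPM over 7 genes) and for endothelium (131 to 157 and 129 to 144 CPM over 6 genes), cell types rich in Gnai2.

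Gnao1, in knockout ventricles, was the other member with an unadjusted p under 0.05 by edgeR. It was 32.1 to 54.7 CPM in wild-type ventricles (median 42.4), 29.2 to 42.4 CPM in heterozygous ones (median 36.2) and 27.5 to 38.0 CPM in knockout ones (median 34.5). All 6 knockout and all 6 heterozygous libraries were below the wild-type mean, and the ranges overlapped. The log2 fold change in knockouts was -0.35 (SE 0.12), with an unadjusted p of 0.00954 and an adjusted p of 0.723 by edgeR, an adjusted p of 0.509 by DESeq2 and an exact permutation p of 0.0303. In heterozygous ventricles it was -0.25 (SE 0.12, exact permutation p = 0.0952), and both comparisons share the same wild-type libraries. In atria, where Gnao1 is abundant, it was 267 to 310 CPM in wild types, 234 to 350 CPM in heterozygotes and 238 to 313 CPM in knockouts, and the knockout difference was -0.15 (SE 0.09, exact permutation p = 0.0649). Leaving out any 1 library kept the knockout difference in ventricles between -0.42 and -0.26. Summed atrial muscle markers in ventricles were 128 to 324 CPM in wild types and 177 to 394 CPM in knockouts, the 5 general neuronal markers 2.70 to 4.36 CPM and 2.34 to 4.41 CPM, and the 5 autonomic neuron markers 2.801 to 8.05 CPM and 3.22 to 6.79 CPM. All 3 sums overlapped between the genotypes, but a sum mostly follows its most abundant gene. Gene by gene, the median log2 fold change in knockout ventricles was -0.52 over the 4 atrial muscle markers tested. Of these, 1 had an unadjusted p under 0.05 and 0 were called by edgeR. The median was -0.30 over the 2 general neuronal markers tested, and the 1 autonomic neuron marker tested gave -0.20. These have the direction of Gnao1, and their part in its change was not tested. Gnaz, with 13 to 19 reads in each wild-type ventricular library, was 0.763 ± 0.0972 CPM in wild-type and 0.591 ± 0.0841 CPM in knockout ventricles, which overlapped. The change of -0.37 on the log2 scale (SE 0.27) had an exact permutation p of 0.00649, while edgeR gave an unadjusted p of 0.187.

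Of the other members, Gna11 was 90.1 ± 9.42 CPM in wild-type and 81.0 ± 6.48 CPM in heterozygous ventricles, with all 6 heterozygous libraries below the wild-type mean and overlapping ranges (-0.15, SE 0.08, adjusted p = 0.961, edgeR). Gnas was 819 ± 42.9 CPM in wild-type, 822 ± 42.1 in heterozygous and 814 ± 66.0 in knockout atria (SD, n = 6), and 918 ± 103, 900 ± 122 and 886 ± 46.2 CPM in ventricles. Gna12 was 120 ± 23.3, 117 ± 8.81 and 121 ± 7.69 CPM in atria and 244 ± 38.9, 223 ± 23.2 and 246 ± 21.8 CPM in ventricles. Gnaq was 45.3 ± 5.35, 45.1 ± 3.13 and 45.2 ± 5.19 CPM in atria. None of these Gnas, Gna12 and Gnaq differences in heart was larger than the spread between mice. Gnai1 in atria was 10.7 ± 1.55, 12.2 ± 3.07 and 11.6 ± 1.33 CPM, Gnai3 41.5 ± 6.65, 41.1 ± 6.76 and 44.8 ± 4.54 CPM, and Gna11 76.6 ± 7.87, 79.6 ± 3.30 and 81.8 ± 5.45 CPM in the same order of genotypes. In cerebellum Gnas was 480 ± 15.7 CPM in wild types and 532 ± 59.2 in knockouts (0.15, SE 0.08). Its exact permutation p was 0.0281 and its unadjusted edgeR p 0.0822. Gnaq was 165 ± 6.35 and 143 ± 31.2 CPM there (-0.21, SE 0.13, exact permutation p = 0.0325, unadjusted edgeR p = 0.147). The ranges overlapped for both. Without knockout replicate 2, which stood apart, these changes were 0.09 and -0.09.

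In hippocampus, the tissue with the tightest groups, Gnao1 was 598 ± 17.2 CPM in wild types and 596 ± 20.3 in knockouts, Gnas 770 ± 18.9 and 770 ± 17.7 CPM, and Gnaq 240 ± 15.9 and 253 ± 10.8 CPM. Gnai1 was 156 ± 5.60 and 151 ± 8.72 CPM, Gnai2 106 ± 5.15 and 112 ± 4.34 CPM, Gnai3 33.5 ± 1.67 and 33.0 ± 1.81 CPM, and Gnaz 54.8 ± 3.48 and 57.6 ± 2.37 CPM. Gnal was 117 ± 7.07 and 112 ± 4.73 CPM, Gna11 114 ± 5.59 and 119 ± 6.03 CPM, and Gna12 73.5 ± 5.76 and 72.3 ± 5.85 CPM. The groups overlapped for each of the 10 members.

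The larger group SDs in knockout cerebellum and cortex went with the 3 libraries that stood apart. In knockout cerebellum replicate 2, Gnao1 was 301 CPM against 474 to 544 CPM in the other 5, Gnaq 81.1 against 147 to 168, Gnal 86.1 against 132 to 162 and Gna11 48.3 against 73.0 to 79.8, while Gnai1 was 217 against 148 to 175. Knockout cortex replicates 3 and 5 deviated the same way. Gnao1 was 279 and 475 CPM there against 602 to 646 in the other 4, Gnaq 103 and 128 against 159 to 171, Gnal 102 and 151 against 203 to 222 and Gna11 40.0 and 90.5 against 102 to 116, and Gnai1 was 215 and 174 against 121 to 142. In each of the 3 libraries, Gnao1, Gnal, Gnaq and Gna11 lay below and Gnai1 above all remaining libraries of the group. Gnai2 in cortex lay outside the other 4 libraries (116 to 137 CPM) on both sides, at 77.6 CPM in replicate 3 and 149 CPM in replicate 5. Gnas also split them, being highest in cerebellum replicate 2 (640 CPM) and cortex replicate 5 (864 CPM) and lowest in cortex replicate 3 (493 CPM).

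**Figure D5:**
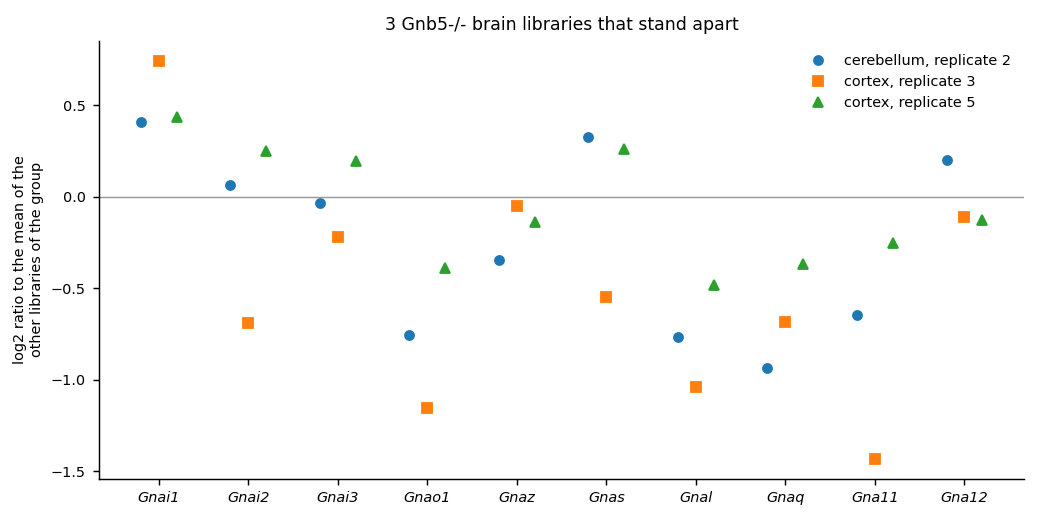
Log2 ratio of each α subunit gene in knockout cerebellum replicate 2 and knockout cortex replicates 3 and 5 to the mean of the remaining knockout libraries of the tissue. Gnao1, Gnal, Gnaq and Gna11 lie below 0 and Gnai1 above 0 in each of the 3.

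The sum of 6 astrocyte markers was low in the same libraries, 1594 CPM in cerebellum replicate 2 against 2355 to 2607 in the other knockouts, and 1857 and 2656 CPM in cortex replicates 3 and 5 against 4004 to 4795. Choroid plexus markers reached 627 CPM in cerebellum replicate 2, against 9.63 to 14.8 CPM in wild-type cerebellum. Uniquely aligned reads that matched no counted gene feature were also fewer. They were 8.03% in cerebellum replicate 2 against 14.02% to 16.6% in the other knockouts. In cortex replicates 3 and 5 they were 6.86% and 8.32% against 13.4% to 14.9%. Reads shared by several genes were more (at least 1.24% in each, against at most 1.15%). The part of these measures in the levels of the members was not tested. Without replicate 2, the knockout cerebellum values of the members lay between -0.09 and 0.21, still with 0 called by edgeR. Gnai2 and Gnaq (-0.09) were the 2 at an unadjusted p under 0.05 (all genes, 11.7%). Gnai2 had an adjusted p of 0.0960 by edgeR, while calls over all genes rose from 14 to 62. Without cortex replicates 3 and 5, left out together after their values were seen, the members lay between -0.08 and 0.05, with 0 called and 0 at an unadjusted p under 0.05 by edgeR, and all-gene calls rose from 10 to 26.

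Whether the knockout effect differed between tissues was tested with interaction terms, with the mouse as a block. By edgeR and by DESeq2, 0 members were called in any of the 4 interactions, where edgeR called 0.00622% of all genes for ventricles minus atria, 0.0103% for cerebellum minus cortex, 0% for hippocampus minus cortex and 0.0258% for cerebellum minus hippocampus. At an unadjusted p under 0.05 there were 2 members for cerebellum minus cortex, Gnai2 (0.23, SE 0.10) and Gnas (0.24, SE 0.10), both with an adjusted p of 1 by edgeR, and 0 members in the others. The share of all genes at that threshold was 4.57% for ventricles minus atria, 3.72% for cerebellum minus cortex, 4.42% for hippocampus minus cortex and 3.72% for cerebellum minus hippocampus. Without the 3 brain libraries that stood apart, a choice made after seeing the data, these became 0.18 (SE 0.06) and 0.17 (SE 0.06), with adjusted p of 0.310 and 0.284 by edgeR. Cerebellum minus hippocampus then also had 2 members at an unadjusted p under 0.05, Gnaq (-0.16) and Gnai2 (0.14), with adjusted p of 0.338 and 0.405, while the share of all genes rose to 10.9% for cerebellum minus cortex and 9.76% for cerebellum minus hippocampus.

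Genes around the α subunits were read from 126 genes of receptors, effectors and partners, listed by role. Of those tested, edgeR called 0 of 90 in knockout atria (11 at an unadjusted p under 0.05), 1 of 83 in knockout ventricles (13), 0 of 110 in knockout cerebellum (5), 0 of 115 in knockout hippocampus (3) and 0 of 118 in knockout cortex (7), and 0 of 90 (9) and 0 of 83 (5) in heterozygous atria and ventricles. At the unadjusted threshold the shares of all genes were the 8.15%, 4.78%, 5.85%, 7.70%, 7.39%, 7.22% and 4.84% given for these comparisons, in the same order. DESeq2 called 2 in knockout ventricles and 0 in the other comparisons. Drd2, which encodes a Gi-coupled dopamine receptor, was called by both. It was 2.26 to 3.63 CPM in wild-type ventricles and 3.72 to 7.51 CPM in knockout ones, without overlap (0.85, SE 0.17, adjusted p = 0.0398 by edgeR and 0.00137 by DESeq2). Over all genes tested, groups did not overlap in 0.566% of pairs in the 7 comparisons. Drd2 was not called in atria, at 7.79 ± 4.06 CPM in wild types, 11.6 ± 2.18 in heterozygotes and 7.55 ± 1.17 in knockouts. Drd2 lies at chr9:49340627-49408177, 25.898 Mb from Gnb5. Of the 28 genes called in knockout ventricles 20 were on chromosome 9, Gnb5 among them, beside 842 of the 14866 genes tested. Adcy1, which encodes an adenylyl cyclase, was called by DESeq2 alone (adjusted p = 0.00608, against 0.0857 by edgeR), at 3.24 to 5.13 CPM in wild types and 4.67 to 11.4 CPM in knockouts.

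Lists of partners were also counted between wild-type ventricles and atria, beside 31.0% of all genes lower and 22.7% higher, with no test of the lists. The filter of this fit covered all 5 tissues, so a gene could enter on its brain reads alone. In the heart fits only 2 of 4 GIRK genes passed the filter, and 11 (atria) or 9 (ventricles) of 25 Gi-coupled receptors. The chamber counts and medians below therefore include genes too low in heart to be tested there. Of 4 GIRK channel genes tested, 2 were lower in ventricles and 0 higher, with a median log2 difference of -2.02, and of 25 Gi-coupled receptors 10 were lower and 3 higher. Of 15 RGS genes 9 were lower and 2 higher, of 9 adenylyl cyclases 5 were lower and 2 higher, and of 4 phospholipase Cβ genes 3 were lower and 1 higher. Gs-coupled receptors were even, with 5 of 16 each way, of 15 Gq-coupled receptors 7 were higher and 5 lower, and of the 4 other Gβ genes 2 were higher and 1 lower. In brain against heart, where 50.6% of all genes were higher and 41.0% lower, 22 of 25 Gi-coupled receptors were higher and 3 lower, with a median of 6.45, and 10 of 15 RGS genes were higher and 5 lower, with a median of 1.96. A gene that entered on its brain reads alone could hardly be lower in brain, so these counts and medians were partly set by the filter. Of α subunits outside the 10, Gna13 was at 47.5 to 62.8 CPM on average in every wild-type tissue, while Gna14, Gna15 and the transducin genes Gnat1, Gnat2 and Gnat3 stayed below 1.6 CPM.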

How the data were processed

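The deposited values are raw read counts per gene. The authors made total RNA libraries with a stranded Illumina kit, trimmed reads with cutadapt 1.8, aligned them with STAR 2.5.3a to GRCm38 and counted reads per gene with HTSeq 0.9.1. Their own test was DESeq2 by genotype within a tissue. Replicates are separate mice, and the labels' mouse numbers tie tissues of a mouse. The counts were fitted over all genes with edgeR 4.0.16 (R 4.3.3), with TMM scaling, a minimum of 10 counts in filterByExpr, the quasi-likelihood test and Benjamini-Hochberg adjustment. Genotype was tested within a tissue, with heterozygotes in the heart fits. Wild-type tissues (30 libraries) and interactions were fitted with the mouse as a block. DESeq2 1.42.0, RLE scaling, other filters, 1 surrogate variable (sva 3.50.0), a replicate block and each library left out were alternatives. Exact permutation tests used log2 CPM with a prior count of 2. The fits were tested on simulated data. Of 53715 gene IDs, 53620 matched GENCODE M21. Sequence came from RefSeq. Members, lists and named genes (every member, list genes called, and the 3 most correlated genes per member) were chosen with earlier results of these data known. The 4 to 70 reads per heart library for Gnaz and Gnal limit their precision. Protein sequences were not used here.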

Additional observations from a re-analysis of the deposited data

Results flagged for a closer look

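Of 120 sets of 6 libraries, 1 per gene and group, 9 held a library whose gap to the nearest other exceeded Dixon's 95% limit for 6 samples, where chance alone gives about 1 in 20. In knockout cerebellum, replicate 2 was lowest for Gnao1 (301 CPM, next 474), Gnaq (81.1, next 147), Gna11 (48.3, next 73.0) and Gnaz (17.6, next 21.7). In knockout cortex, replicate 3 was lowest for Gna11 (40.0 CPM, next 90.5). Both are among the libraries that stood apart. The other 4 lay in single genes. Gnas was highest in heterozygous ventricles replicate 4 (1146 CPM, next 883), a library that also stood apart from its group over all genes. Gnaq was highest in wild-type atria replicate 2 (55.5 CPM, next 44.97), Gnai2 was highest in knockout hippocampus replicate 3 (120 CPM, next 113), and Gnai1 was lowest in wild-type hippocampus replicate 2 (145 CPM, next 157). The causes were not tested.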

How the results depend on the processing

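Over 820 alternative values, the member counts and called differences mostly kept their direction and side of the threshold. Single differences lost their call in 20 of these values and gained one in 9. Those lost were Gna11 (4 values), Gnai3 (1) and Gnaz (1) for ventricles against atria, Gnai3 (6) and Gnai2 (3) for hippocampus against cortex, and Gnao1 (3), Gnal (1, DESeq2, adjusted p = 0.0949) and Gna12 (1) for cerebellum against hippocampus. Those gained were Gnas (3) for ventricles against atria, Gna12 (2) for cerebellum against cortex, Gna11 and Gna12 for hippocampus against cortex, Gnai3 for cerebellum against hippocampus and Gnai2 in knockout cerebellum. Shares of summed RPKM moved with the longest transcript in all 20 cases. DESeq2 called 1 member in knockout cerebellum (Gnai2) where edgeR called 0. For wild-type hippocampus against cortex, leaving out 1 mouse gave 3 to 5 members called against 5, with 3 without replicate 4 or 6. Gnaq, called in neither case, changed sign for ventricles against atria without replicate 2 (0.0011, range -0.15 to 0.0011 when 1 mouse was left out) and for cerebellum against cortex with RLE scaling (-0.0281) and DESeq2 (-0.0282), against 0.04. The cause was not tested. Over the other alternatives the members called ranged from 5 to 8 for ventricles against atria, 8 to 9 for cerebellum against cortex, 4 to 7 for hippocampus against cortex and 6 to 9 for cerebellum against hippocampus. Calls over all genes by edgeR and DESeq2 were 41 and 110 in knockout atria, 28 and 63 in ventricles, 14 and 49 in cerebellum, 29 and 104 in hippocampus, 10 and 25 in cortex, 2 and 7 in heterozygous atria, and 1 and 16, 2 and 20, and 5 and 9 in the 3 interactions with calls. With 1 surrogate variable the calls were 45 in knockout ventricles, 57 in cerebellum and 22 in cortex. With only the 2 genotypes fitted they were 20 in knockout atria and 1 in heterozygous ventricles. With at least 10 counts in every library there were 6 in knockout cortex. Without the filter on low counts the interaction of ventricles and atria gave 135. Leaving out 1 library gave 24 to 62 in knockout atria, 17 to 41 in ventricles, 9 to 62 in cerebellum, 8 to 22 in cortex, 2 to 6 in heterozygous atria and 1 to 5 in heterozygous ventricles. With a replicate block, 0 members were called in the 7 genotype comparisons. The numbers join different mice, same-numbered mice correlated at -0.198 to 0.0956 in their deviations from group means, each mouse matched best with its own number in 2 of 30 cases, and all-gene calls became 37 in knockout atria, 23 in ventricles, 5 in cerebellum, 19 in hippocampus and 6 in cortex, and 0 in heterozygous ventricles. Without the mouse block (no replicate block) the tissue contrasts gave 7, 8, 4, 8 and 10 members called. Leaving out libraries that stood apart together was chosen after seeing the data. Depth limits Gnaz and Gnal in heart.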
